A study of Homo sapiens with 8 samples.

Results

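SW620 is an established human line of colorectal adenocarcinoma, which the labels place at Dukes' type C. The comparison described here is SW620 carrying a short hairpin RNA against FOXA2 (shFOXA2, 3 libraries) against SW620 carrying a control hairpin (shNC, 3 libraries). These 6 libraries were chosen by their titles out of 8 in the series, and the other libraries are 1 of untreated SW620 and 1 of untreated SW480, a colorectal line labelled Dukes' type B. All 6 hairpin libraries come from cells that were infected with a lentiviral vector, which expresses the hairpin from a U6 promoter together with puromycin resistance and mCherry, and that were kept as stable populations under puromycin rather than as clones. The untreated cells carry no vector. Total RNA was sequenced after a directional library preparation. Whether replicate libraries are separate cultures is not in the labels, so the p-values below measure the spread between libraries, which may be technical. Of 40693 gene symbols, the 15676 that reached 1 CPM (counts scaled to a common library total) in 3 or more hairpin libraries were tested.

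FOXA2 encodes a forkhead transcription factor that opens closed chromatin and is needed for the formation of endoderm organs, with the liver as the best-studied case. A U6-driven short hairpin is cut inside the cell into a small double-stranded RNA, and the strand that pairs with the target directs a silencing complex to it. The same strand can pair through a short stretch with 3′ untranslated regions (UTRs) of other transcripts and lower these as well, which is why the hairpin sequences are shown beside the expression data.

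The labels list target sites of 2 hairpins against FOXA2 and 1 control. The titles of the shFOXA2 libraries hold the number 1 before the replicate number, which would fit hairpin 1, but no label says so in words. The sites are given from 5′ to 3′ in the sense of the transcript, and the capitals in hairpin 1 mark positions 11 to 18, whose 7-base stretches are followed below.
hairpin 1: gaacggcatgAACACGTAcat
hairpin 2: gcaagggagaagaaatccata
control hairpin: caacaagatgaagagcaccaa
Hairpin 1 targets a stretch of the FOXA2 reading frame, within exon 3 of 3, at chr20:22583093-22583113 on the minus strand (GRCh38, GENCODE v29). The site of hairpin 2 matched the 3′ UTR in the same exon, at chr20:22581726-22581746. The control site matched no GENCODE v29 transcript.

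Total counts ran from 7478411 to 13076566 over the hairpin libraries. The 2 libraries numbered 1 differed from their own group more than the others did. Chi-square per degree of freedom, which is 1 for counting noise alone, was 3.97 to 4.595 for pairs with replicate 1 and 1.67 or 1.74 for replicates 2 and 3. A set of 62 genes had 30 counts or more in shFOXA2 replicate 1 together with a CPM 4 or more times that of any other hairpin library. The same rule found 14 genes for shNC replicate 1 and 0 for the other 4 libraries. The 62 genes held 0.284% of the counts of shFOXA2 replicate 1. Of these 62, 31 were tested and 0 were called by edgeR. The rule picks genes far above their own replicates, which widens the spread within the group, so a call was unlikely from the start.

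The genes led by ratio in shFOXA2 replicate 1 included several of liver. APOB, the main protein of liver and gut lipoproteins, stood at 157 CPM there and at 3.65 to 5.56 in the other 5 hairpin libraries, and had 0 counts in both untreated libraries. G6PC, which releases glucose from the liver, stood at 27.7 against 0.542 to 1.40, and FABP1, a fatty acid carrier of liver and gut, at 9.01 against at most 0.4997. The secreted ribonuclease ANG (27.4 against at most 1.22) and the cadherin CDH2 (26.4 against at most 1.40) were as far apart. In all, a list of 18 hepatocyte markers summed to 208 CPM in this library and to 28.3 to 31.2 in the other 5. Of the 18, 6 were at 0 in this library and 5 to 8 in the others. APOB alone gave 157 of the 208 CPM. FABP1, APOA1, APOA2, VTN, FGA and HP were also highest in this library. The remaining members were not, among them ALB (1.085 CPM against 0.8995 to 3.301) and SERPINA1 (15.11 against 14.97 to 21.35). Over the 62 genes, the median level in the other 5 libraries was 4.96% to 7.62% of that in shFOXA2 replicate 1. Of the 11 genes among them with 0 counts in untreated SW620, 9 or 10 had counts in each of those 5 libraries. The sources of these reads were not tested, and each result below is given with this library and, where it matters, without it.

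**Figure D1:**
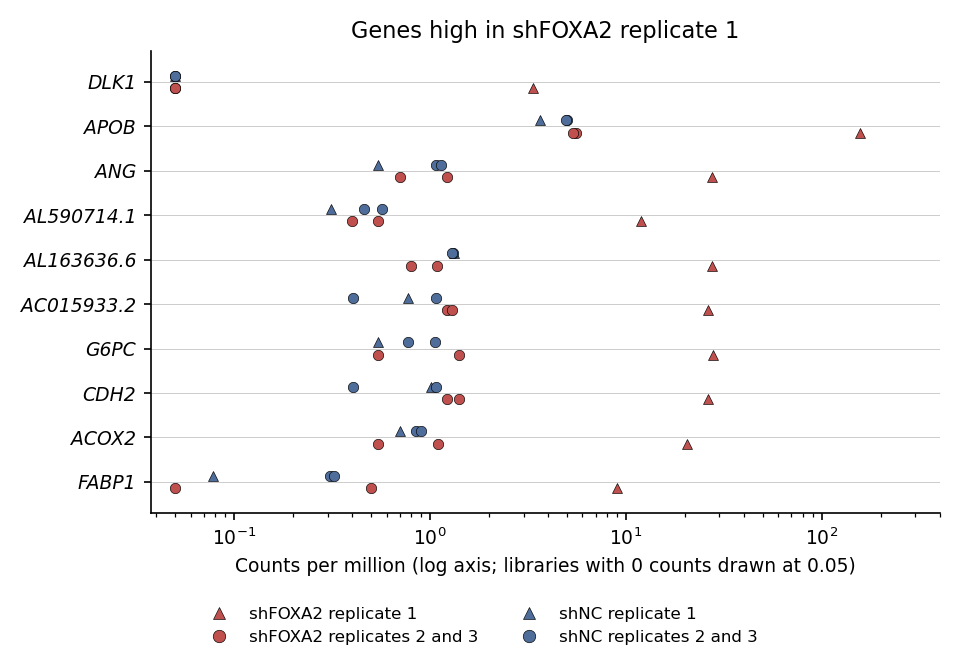
Level in CPM (log axis) of the 10 genes with the largest ratio between shFOXA2 replicate 1 and the highest other hairpin library, with 1 symbol per library. The red triangle of shFOXA2 replicate 1 stands apart in each row, for example at 157 for APOB, while the other 2 shFOXA2 libraries lie far nearer to the controls, among them or, for APOB, CDH2 and AC015933.2, just above them.

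FOXA2 (identifier ENSG00000125798.10) stood at 30.2, 29.3 and 22.2 CPM in the shFOXA2 libraries and at 52.3, 48.9 and 51.9 in the shNC libraries. The groups did not overlap. The log2 fold change was -0.91 (SE 0.09, edgeR adjusted p = 7.95e-10), and it was -1.01 without shFOXA2 replicate 1. An exact two-sided permutation test over the 6 libraries gave p = 0.1, the smallest value that 3 against 3 allows. Untreated SW620 had 82.4 CPM, above all 6 hairpin libraries, and untreated SW480 had 4.43.

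Over all tested genes, 39.9% (6258) passed an adjusted p of 0.05 in edgeR's quasi-likelihood test, 19.7% higher (3082) and 20.3% lower (3176) in shFOXA2. In 49.5% of them every library of one group lay above every library of the other. Without shFOXA2 replicate 1, 37.3% of 15480 tested genes passed, and the 5417 genes called in both fits moved in the same direction in both. Differences were mostly small, with 0.36 as the median size on the log2 scale among called genes, and 220 genes rose and 208 fell by at least 2-fold. A further limit of 4-fold left 17 that rose and 7 that fell that far. Calls were also rarer among low genes, with 7.56% higher and 6.26% lower below a mean log2 CPM of 2 against 31.9% and 27.0% between 6 and 8.

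**Figure D2:**
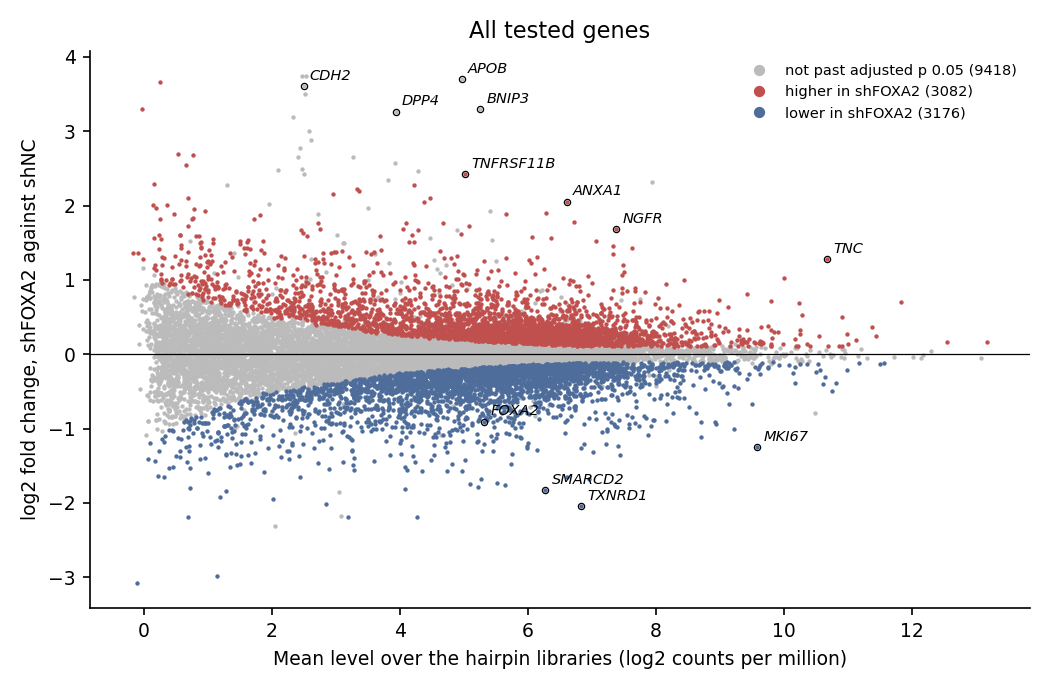
Log2 fold change of shFOXA2 against shNC for the 15676 tested genes (vertical axis) by mean level in log2 CPM (horizontal axis), with 1 point per gene coloured by call. Called genes fill both sides of 0, while APOB, CDH2, BNIP3 and DPP4 have high fold changes that are not called and are much lower without shFOXA2 replicate 1.

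At a mean log2 CPM of 6 or more, the 12 largest rises were led by proteins of the cell surface and matrix. ANXA1, a phospholipid-binding protein that restrains inflammation, stood at 152, 167 and 163 CPM in shFOXA2 and at 37.4, 37.2 and 41.0 in shNC. EMP1, a small membrane protein of epithelia, stood at 115, 133 and 127 against 31.6, 34.5 and 34.1. Both were more than 3-fold higher in every shFOXA2 library than in any shNC library, with log2 fold changes of 2.05 (SE 0.05) and 1.90 (SE 0.06). Their levels in untreated SW620 were 10.6 and 24.3 CPM, below all 6 hairpin libraries. NGFR, the low-affinity nerve growth factor receptor, stood at 254, 258 and 259 CPM against 75.9, 84.1 and 80.4. Its log2 fold change was 1.68 (SE 0.05, adjusted p = 4.71e-28).

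Receptors and adhesion genes made up most of the remaining rises. NRP2, a co-receptor for semaphorins and vascular growth factors, stood at 230, 241 and 245 CPM against 79.1, 92.4 and 89.1. CAV1, the coat protein of caveolae, stood at 266, 298 and 310 against 104, 112 and 108. EFNB1, a membrane-bound ligand of Eph receptors, stood at 230, 247 and 224 against 92.5, 94.2 and 89.1. These 3 genes rose by 1.46, 1.43 and 1.35 on the log2 scale, and no shFOXA2 library fell within the shNC range. TNC, the matrix glycoprotein tenascin C, had the highest CPM of the rises given here, at 2148, 2405 and 2412 against 929, 1032 and 914.

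The rest of the 12 are genes of metabolism, stress and killing. SLC2A3, a high-affinity glucose transporter, stood at 154, 173 and 174 CPM against 57.5, 44.5 and 43.4. PLK2, a kinase induced by stress and growth signals, stood at 192, 194 and 217 against 60.0, 75.1 and 74.3. In both, shNC replicate 1 stood apart from the other controls, in opposite directions, and the SE was larger (0.13 and 0.10). PDP1, a phosphatase that activates pyruvate dehydrogenase, rose by 1.58 on the log2 scale. PRF1, which encodes the pore-forming protein of killer lymphocytes, stood at 124, 131 and 120 against 43.4, 42.1 and 41.2, for a log2 difference of 1.56 with SE 0.05 (adjusted p = 3.35e-25). PRF1 was also present in untreated SW620 (76.4 CPM) and untreated SW480 (216 CPM). Of the 6 tested leukocyte markers, 4 rose and 0 fell. Besides PRF1 these were GZMB, a killer cell protease, at 1.252, 1.76 and 2.00 against 0.311, 0.0768 and 0.0813 CPM, the T helper co-receptor CD4 (log2 difference 0.92) and the lysozyme gene LYZ (0.85). GZMB passed the filter of 1 CPM only through the shFOXA2 libraries, so only a rise could be called. Without shFOXA2 replicate 1 it was not tested, and 3 of 5 tested leukocyte markers rose and 0 fell. The pan-leukocyte marker PTPRC (-0.23) and CD68 (0.11) were not called, and the T cell marker CD3E had 0 counts in all 6 hairpin libraries. The part of other cells in the level of PRF1 was not tested.

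**Figure D3:**
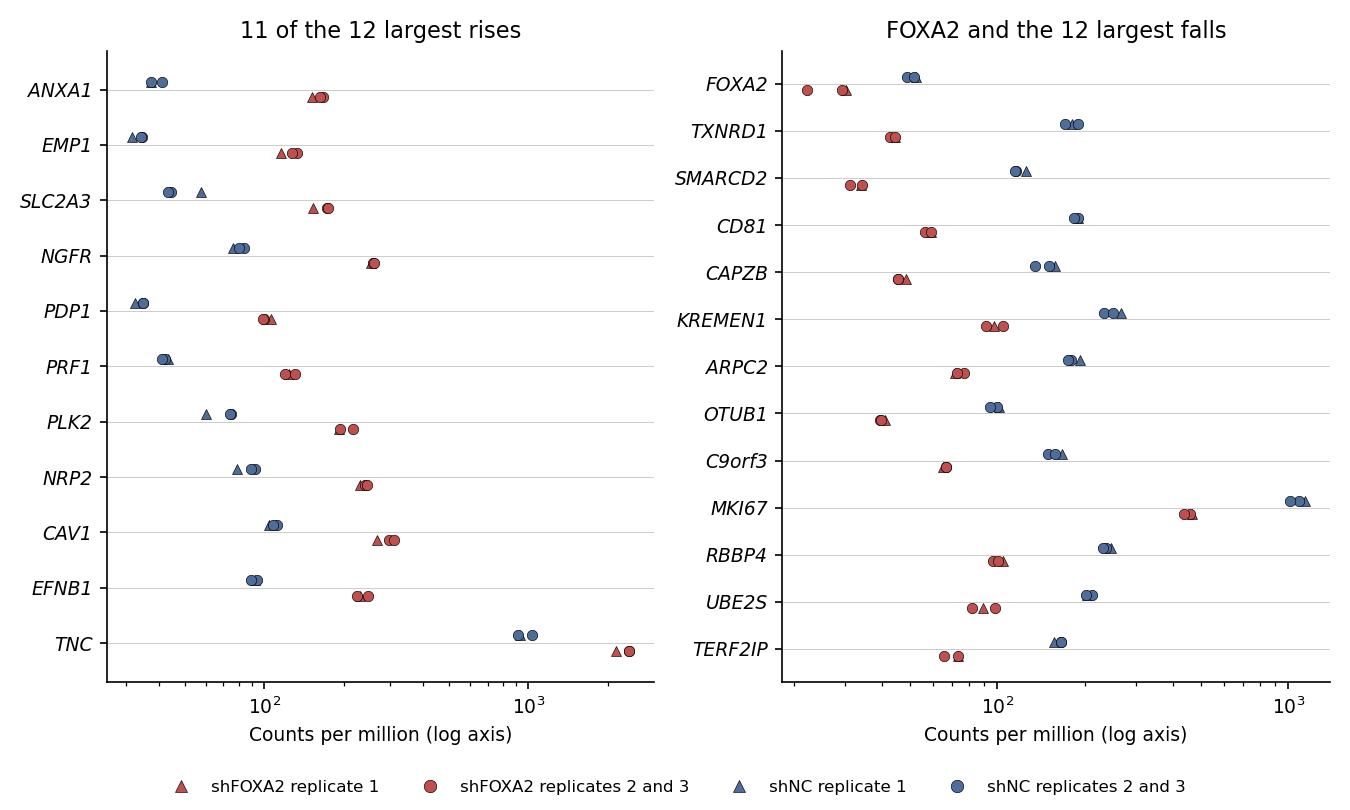
Level in CPM (log axis) of 11 of the 12 largest rises (left) and of FOXA2 with the 12 largest falls (right), with 1 symbol per library, red for shFOXA2 and blue for shNC, and triangles for replicate 1. In every row the 3 red and the 3 blue symbols do not overlap, and FOXA2 itself has the narrowest gap on the right.

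The largest falls among genes of the same level were led by enzymes and complex subunits. TXNRD1, the cytosolic reductase that keeps thioredoxin active, stood at 44.3, 42.6 and 44.3 CPM in shFOXA2 and at 180, 171 and 190 in shNC, and its log2 difference was -2.04 with SE 0.05 (adjusted p = 4.23e-29). SMARCD2, which belongs to the SWI/SNF chromatin remodellers, stood at 33.9, 31.2 and 34.3 against 126, 116 and 115. CD81, a tetraspanin of the plasma membrane and of exosomes, stood at 59.2, 56.4 and 59.1 against 190, 190 and 184. In these 3 genes the fall was larger than that of FOXA2 itself, and untreated SW620 (169, 100 and 151 CPM) lay below the shNC range in each.

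CAPZB and ARPC2, also among the 12 falls, encode parts of machines that build actin filaments. CAPZB, the beta subunit of the protein that caps filament ends, stood at 48.7, 45.7 and 45.5 CPM against 157, 150 and 134. ARPC2, a core subunit of the Arp2/3 complex that nucleates branches, stood at 71.4, 77.0 and 72.5 against 192, 179 and 175. Their log2 fold changes were -1.66 and -1.31 (SE 0.06 and 0.05). The partner subunits moved less and both ways. CAPZA1 rose by 0.26 on the log2 scale, and CAPZA2 had a difference of -0.03 that was not called. In the Arp2/3 complex ARPC4 also fell, by 0.35, whereas ARPC1A, ARPC1B, ARPC3, ARPC5 and ACTR2 rose by 0.12 to 0.29, and ACTR3 (0.06) was not called.

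Other falls were in proliferation, ubiquitin and telomere genes. MKI67, which coats mitotic chromosomes and marks dividing cells, stood at 467, 458 and 439 CPM against 1140, 1089 and 1015. RBBP4, a histone-binding subunit of several chromatin complexes, stood at 105, 96.7 and 100.3 against 246, 237 and 230. KREMEN1, a receptor for the Wnt antagonists of the Dickkopf family, stood at 97.0, 104 and 91.2 against 266, 233 and 249. UBE2S, which extends ubiquitin chains for the anaphase-promoting complex, OTUB1, a deubiquitinase, and TERF2IP, a shelterin component at telomeres, fell by 1.20, 1.29 and 1.20 on the log2 scale. C9orf3, an aminopeptidase gene, fell by 1.26, and OAZ1, which limits polyamine synthesis, went from 572 ± 7.78 to 265 ± 8.61 CPM (mean ± SD, n = 3 each).

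Because a hairpin can act on other transcripts through short stretches of its sequence, all 15 stretches of 7 bases in each of the 3 target sites were searched in the annotated 3′ UTRs of 12728 tested genes. An earlier ranking of 7-base sequences in these same data had already picked some of them, so the profile is a description and not independent support. Over all genes searched, 22.3% were called higher and 22.0% lower. Genes whose 3′ UTR holds AACACGT, positions 11 to 17 of hairpin 1, were called lower in 38.4% of 445 cases and higher in 16.2%. For ACACGTA, positions 12 to 18, the shares were 42.7% lower and 15.8% higher of 349 genes, and the median log2 difference was -0.15 against 0.01 over all genes searched. The stretches on either side, from positions 10 and 13, had 32.7% and 34.0% lower. The other 11 stretches of hairpin 1 had 17.2% to 26.5% lower, those of hairpin 2 had 16.8% to 23.01% and those of the control site 16.4% to 22.3%. The sites of hairpin 2 and the control hold no CG, unlike the stretches of hairpin 1 from positions 10 to 13. Their stretches also match more genes, so they are not a like baseline. Reverse complements of the hairpin 1 stretches had 18.4% to 28.3% lower, with the highest share for GCCGTTC. Without shFOXA2 replicate 1 the share for ACACGTA was 41.2%, and in coding sequences it was 32.6%. A match in these letters is not a measured site of action, and whether the hairpin lowers these transcripts directly was not tested.

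**Figure D4:**
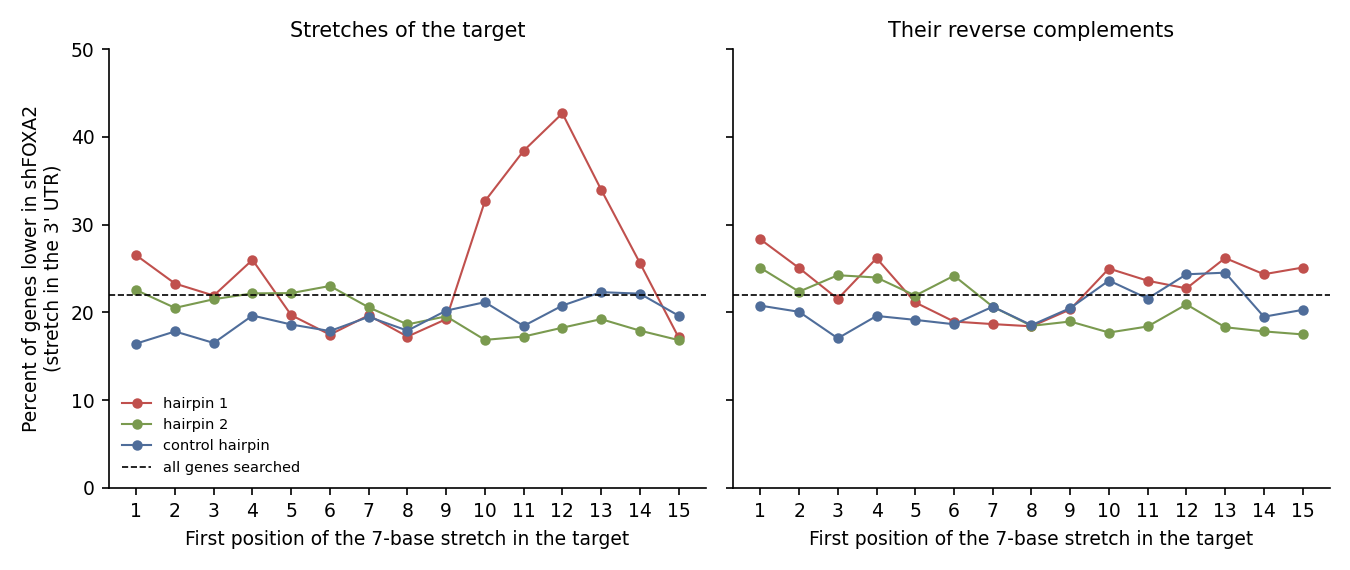
Percent of genes called lower in shFOXA2 (vertical axis) among those whose 3′ UTR holds a 7-base stretch, by the first position of the stretch in the target (horizontal axis), for the 3 hairpin targets (left) and their reverse complements (right), with the share over all genes searched as a dashed line. The line of hairpin 1 rises from position 10 to 42.7% at position 12 and returns to 17.2% at position 15, while hairpin 2 and the control stay near or under the dashed line on the left.

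Of the 12728 genes searched, 445 hold AACACGT and 349 hold ACACGTA. Of the 12 largest falls, 4 carry such a stretch from positions 11 to 18 of hairpin 1 within the longest run that their 3′ UTR shares with the target. They are shown as 21 bases aligned to the target, with the shared run in capitals, since they are the members where hairpin sequence and fall coincide. PLOD2 and IDE, chosen after their values were seen, are added for their long runs.
TXNRD1: ttgagtttTGAACACGTgctt
SMARCD2: tggggccgcagACACGTAggc
CD81: tgtcctttctAACACGTcgcc
KREMEN1: gaaacataccAACACGTgcag
PLOD2: gactGGCATGAACACGTcttt
IDE: atatttatttAACACGTACAa
In GRCh38 with GENCODE v29 they lie in the last exons of the searched transcripts. TXNRD1 is at chr12:104349705-104349725 on the plus strand, SMARCD2 at chr17:63832854-63832874 on the minus strand and CD81 at chr11:2397314-2397334 on the plus strand. KREMEN1 is at chr22:29144547-29144567 on the plus strand, PLOD2 at chr3:146070654-146070674 on the minus strand and IDE at chr10:92453632-92453652 on the minus strand. PLOD2, a lysyl hydroxylase of collagen, shares a run of 13 bases and fell from 29.2 ± 3.41 to 9.74 ± 1.01 CPM (mean ± SD, n = 3 each), a log2 fold change of -1.57. IDE, the insulin-degrading enzyme, shares 10 bases and fell by 1.00 on the log2 scale. Run length alone did not order the falls. CSNK1A1, with a run of 14 bases (positions 1 to 14), fell by 0.39, and CFLAR, with 13 bases from position 1, had a difference of -0.03 that was not called. Runs that hold AACACGT did not all go with a fall either. PAQR3 shares the same 10 bases as IDE and rose by 0.43 on the log2 scale. UNC5B, with 11 bases (positions 7 to 17), had a difference of 0.03 that was not called. Of 86 genes with runs of 10 bases or more, 32.6% were lower and 22.1% higher, and their median log2 fold change was -0.0016. For MKI67, RBBP4, UBE2S and TERF2IP the longest run found had 7 or 8 bases and held neither AACACGT nor ACACGTA. No run of 7 was found for CAPZB, ARPC2, OTUB1 or C9orf3. The longest run alone was kept per gene, so shorter or equal runs elsewhere in the same 3′ UTR are not covered. The runs found for TNC, CAV1, NGFR, SLC2A3 and EMP1, which rose, had 7 bases and also held neither AACACGT nor ACACGTA.

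The pathway lists were read against the shares over all tested genes, 19.7% higher and 20.3% lower, and a list's share is a description without a test. The lists with the highest medians were YAP and TAZ targets, integrins, EGF receptor genes and the TNF receptor family. Among integrins outside the hemidesmosome, which hold cells to matrix, and their adaptors, 15 of 20 tested genes rose and 0 fell, and the median log2 difference was 0.57 (14 and 0, median 0.51, without shFOXA2 replicate 1). The beta chain ITGB7, a partner in gut homing of lymphocytes, stood at 95.5, 92.3 and 90.9 CPM against 33.5, 42.9 and 39.0. ITGB8, which activates latent transforming growth factor beta, rose by 0.93 on the log2 scale and the laminin receptor chain ITGA3 by 0.92. The adaptor vinculin, VCL, stood at 231, 247 and 251 against 131, 138 and 133. All 3 shFOXA2 libraries lay above all 3 shNC libraries in each of these 4 genes.

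**Figure D5:**
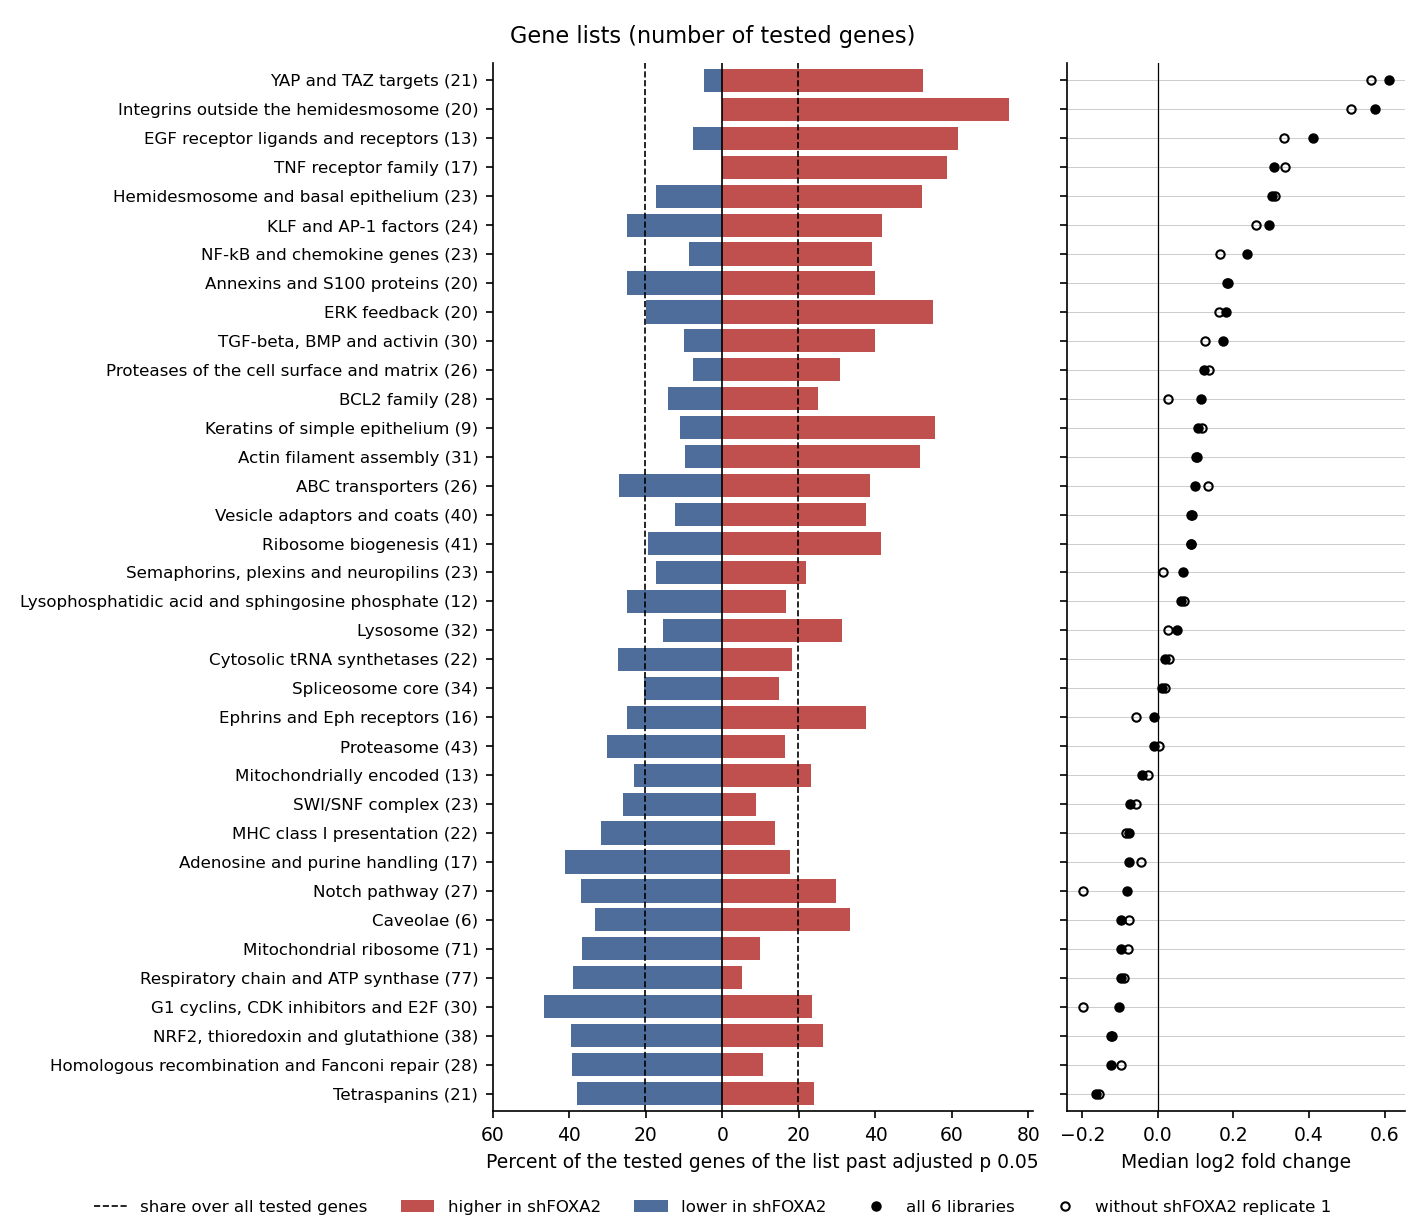
Percent of the tested genes of each list that were called higher (red, to the right) or lower (blue, to the left) in shFOXA2, with the shares over all tested genes as dashed lines (left), and the median log2 fold change of each list with all 6 libraries and without shFOXA2 replicate 1 (right). Integrins, TNF receptors and EGF receptor genes lie farthest to the right, and lists of mitochondria, repair and the G1 phase have more genes lower than higher.

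In the hemidesmosome and basal epithelium list, genes of stable anchorage to the basement membrane, 12 of 23 rose and 4 fell, with a median of 0.30. COL17A1, a transmembrane collagen of hemidesmosomes, stood at 31.6, 30.1 and 34.2 CPM against 5.59, 8.91 and 5.28. PLEC, the linker plectin, stood at 1118, 1070 and 1159 against 654, 720 and 663, and ITGB4, the hemidesmosome integrin, rose by 0.68 on the log2 scale. KRT14, a basal keratin, had a log2 fold change of 2.47 that was not called and that was 0.48 without shFOXA2 replicate 1. In the TNF receptor family, which passes signals for survival and death, 10 of 17 rose and 0 fell (median 0.31). TNFRSF11B, a secreted decoy receptor, stood at 54.3, 59.8 and 55.8 against 11.7, 8.52 and 11.5, and EDAR, the ectodysplasin receptor, at 36.1, 36.6 and 37.4 against 13.6, 13.4 and 14.95.

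In the EGF receptor list, 8 of 13 rose and 1 fell (7 of 12 and 1 without shFOXA2 replicate 1), and the ligands EREG and AREG had large rises. The ligand EREG stood at 35.1, 35.5 and 41.6 against 7.53, 9.90 and 8.78, and the ligand AREG at 16.9, 16.5 and 19.6 against 3.96, 3.76 and 3.82. The receptor EGFR was barely detected, at 2.00, 1.90 and 1.20 against 0.388, 0.461 and 0.163, and its log2 difference was 2.29 with SE 0.45 (adjusted p = 7.14e-05). It passed the filter on low values only through the shFOXA2 libraries, so only a rise could be called. It did not pass that filter without shFOXA2 replicate 1, and untreated SW480 had 126 CPM. The other receptors in the list were abundant and moved little, with log2 fold changes of -0.28 for ERBB2, which was called, and 0.01 for ERBB3, which was not. AREG and AREGB share sequence and had nearly the same counts, for example 203 and 195 in shFOXA2 replicate 1. Their reads may be shared or split between them, so the 8 rises of the list may count the same signal for both.

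Lists of signalling outputs held more rises than falls. Among YAP and TAZ targets, which respond to tension and cell density, 11 of 21 rose and 1 fell, with a median of 0.61 (0.56 without shFOXA2 replicate 1). MYOF, a membrane repair protein, stood at 837, 902 and 912 CPM against 479, 527 and 502, and PTPN14, a phosphatase that binds YAP, rose by 0.68 on the log2 scale. CYR61, a secreted matrix protein and classic target, stood at 9.18, 11.1 and 11.6 against 2.48, 4.45 and 2.93, a called rise of 1.68 on the log2 scale. CTGF, its relative, stood at 74.0, 10.6 and 11.2 against 9.32, 4.84 and 3.98, and its difference was not called with all 6 libraries (adjusted p = 0.165) or without shFOXA2 replicate 1 (adjusted p = 0.138). Among ERK feedback genes, 11 of 20 rose and 4 fell. The phosphatase DUSP5 stood at 57.1, 55.6 and 58.8 against 23.6, 23.4 and 25.2, and the AP-1 subunit FOSL1 at 151, 179 and 172 against 81.3, 81.2 and 79.8. The related factors ETV4 and ETV5 moved apart, with ETV4 higher by 0.92 on the log2 scale and ETV5 lower by 0.61. In the TGF-beta, BMP and activin list, 12 of 30 rose and 3 fell. Rises on the log2 scale were 1.19 for the receptor TGFBR2, 1.13 for the inhibitor SMAD7 and 0.73 for the ligand BMP4, while the inhibin chain INHBB fell by 0.90 and TGFBI, an adhesion protein of the matrix, by 0.43.

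The actin filament list had 16 of 31 genes higher and 3 lower, but its median was only 0.10, and its largest difference was the fall of CAPZB given above. In the annexin and S100 list, calcium-dependent membrane and signalling proteins, 8 of 20 rose and 5 fell. S100A11 stood at 365, 390 and 378 CPM against 204, 194 and 192, whereas S100A4, a relative linked to migration, stood at 377, 427 and 378 against 787, 801 and 793. In the KLF and AP-1 list, 10 of 24 rose and 6 fell: KLF4 (0.86) and KLF6 (0.61) were among the rises and JUND (-0.79) among the falls. In the Notch list, 8 of 27 rose and 10 fell. Its falls included the ligand DLL4, which stood at 3.59, 2.71 and 2.60 against 14.5, 14.3 and 12.8, the receptor NOTCH1 (-0.75), the fringe enzyme LFNG (-0.91) and the HES family gene HES6 (-1.05), and its rises the receptor NOTCH2 (0.43), the co-activator MAML2 (0.74) and the target HES1 (0.48).

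Lists of mitochondria and of the cell cycle held more falls than rises, mostly small ones. Of 77 nuclear genes for the respiratory chain and ATP synthase, 30 fell and 4 rose, and the median log2 difference was -0.10 (28 and 4, median -0.09, without shFOXA2 replicate 1). NDUFA6, a subunit of complex I, stood at 33.7, 34.3 and 34.1 CPM against 55.4, 49.3 and 53.8, and COX8A, a subunit of cytochrome oxidase, at 109, 130 and 113 against 151, 156 and 166. NDUFB6 shows the part of 1 library: it stood at 170 in shFOXA2 replicate 1 and at 52.1 to 54.5 in the other 5. Of 71 proteins of the mitochondrial ribosome, 26 fell and 7 rose (median -0.10), with MRPL36 at 29.6, 26.7 and 23.9 against 56.4, 57.7 and 58.8. Of the 13 protein genes encoded in mitochondrial DNA, 3 rose and 3 fell, all by less than 0.20 on the log2 scale.

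In the G1 cyclin, CDK inhibitor and E2F list, 14 of 30 fell and 7 rose, with a median of -0.10 that became -0.20 without shFOXA2 replicate 1. E2F1, which switches on genes of S phase, stood at 54.7, 57.2 and 55.8 CPM against 75.5, 73.8 and 75.1. CCND1, cyclin D1, fell by 0.52 on the log2 scale while its kinase CDK6 rose by 0.56 and the kinase inhibitor CDKN2B by 0.67. MYC, with libraries from 542 to 695 CPM and overlapping groups, was not called (log2 fold change -0.09). Among homologous recombination and Fanconi genes, which mend broken and crosslinked DNA, 11 of 28 fell and 3 rose, against 12 and 1 without shFOXA2 replicate 1. FANCI stood at 104, 95.4 and 95.8 against 140, 132 and 133, and BRCA1 fell by 0.43 on the log2 scale.

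Complexes and organelles held calls in both directions. Of 23 SWI/SNF genes, 6 fell and 2 rose, and after SMARCD2 the next falls were BCL7A (-1.01) and SMARCB1 (-0.57), while the ATPase SMARCA4 had a difference of -0.02 that was not called. Of 43 proteasome genes, 13 fell and 7 rose, led by the lid subunit PSMD7, at 133, 134 and 124 CPM against 241, 257 and 250. Of 40 vesicle coat genes, 15 rose and 5 fell, and the adaptor subunit AP1M1 fell by 1.75 on the log2 scale. In the NRF2, thioredoxin and glutathione list, 15 of 38 fell and 10 rose. Besides TXNRD1, the glutathione synthetase GSS fell by 0.78 on the log2 scale and the peroxidase GPX2 by 0.54, while the quinone reductase NQO1 rose by 0.62. LAMP1, a lysosomal membrane protein, fell by 0.97 and the lysosomal protease CTSD by 0.92, in a lysosome list with 10 of 32 higher and 5 lower.

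Other lists of receptors and ligands moved both ways. Ephrins and Eph receptors had 6 of 16 higher and 4 lower (median -0.01), with EFNB2 higher by 0.85 and EPHB6 lower by 0.47 on the log2 scale. Semaphorins, plexins and neuropilins had 5 of 23 higher and 4 lower (median 0.07), with SEMA6B lower by 1.10. Tetraspanins had 5 of 21 higher and 8 lower (median -0.16), with CD151 lower by 0.31 after CD81. In the lysophosphatidic acid and sphingosine phosphate list, 2 of 12 rose and 3 fell, and the receptor LPAR6 rose by 2.15.

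NF-kB and chemokine genes had 9 of 23 higher and 2 lower (median 0.24, and 0.17 without shFOXA2 replicate 1), among them the cytokines IL18 (1.59) and LIF (0.81). Keratins of simple epithelium had 5 of 9 higher and 1 lower, against 3 and 0 without shFOXA2 replicate 1. Proteases of the cell surface and matrix had 8 of 26 higher and 2 lower, with the urokinase gene PLAU (1.38) and its receptor PLAUR (1.23) among the rises. ABC transporters had 10 of 26 higher and 7 lower, class I antigen presentation 3 of 22 higher and 7 lower, and caveolae 2 of 6 each way. Adenosine and purine handling had 3 of 17 higher and 7 lower, among them the deaminase ADA (-1.82) and the nucleoside transporter SLC29A1 (-1.17). Core spliceosome genes had 5 of 34 higher and 7 lower (median 0.01) and cytosolic tRNA synthetases 4 of 22 higher and 6 lower (median 0.02). Ribosome biogenesis genes had 17 of 41 higher and 8 lower with a median of 0.09. In the BCL2 family list, 7 of 28 rose and 4 fell. BNIP3, a mitophagy receptor of that list, stood at 180, 10.3 and 12.4 CPM against 6.21, 8.22 and 7.07: it was not called with all 6 libraries (log2 fold change 3.30, adjusted p = 0.173) and was called without shFOXA2 replicate 1 (0.68, adjusted p = 0.000752). DPP4, a surface peptidase of the adenosine list, behaved alike, at 66.1, 7.32 and 6.90 against 2.10, 3.61 and 3.09, with a log2 fold change of 3.26 that was not called (adjusted p = 0.134) and of 1.27 without that library (adjusted p = 4.23e-06).

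Marker lists of cell types were summed per library. Defining markers of colorectal epithelium summed to 8150 to 8889 CPM in the 6 hairpin libraries, mostly keratin KRT8. Of its 9 tested members 4 rose and 2 fell (4 and 0 without shFOXA2 replicate 1): CDX2, a gut transcription factor, rose by 0.69 on the log2 scale, and the adhesion molecule EPCAM and the keratin KRT19 fell by 0.13 each. CDX1 had 0 counts in all 6 and LGALS4, another gut marker, was at most 1.46 CPM, so these markers of colon cells were absent or nearly so in both groups. The fibroblast and smooth muscle list summed to 800.5 to 917 CPM in shFOXA2 and to 508 to 560 in shNC, of which VIM alone gave 664 to 690 and 408 to 452. Of its 8 tested members, 4 rose (VIM, COL6A1, COL1A1 and LUM) and 1 fell, TAGLN, an actin-binding protein of smooth muscle, from 41.1 to 19.96 CPM. Without shFOXA2 replicate 1, 5 rose and 1 fell. FN1, at 90.31 CPM in that library and at 21.15 and 21.89 in the other shFOXA2 libraries, was called only then (log2 difference 0.58). COL1A2 and COL3A1, the defining fibrillar collagens, had 0 counts in every hairpin library. The leukocyte list summed to 161 to 166 CPM in shFOXA2 and to 65.9 to 73.0 in shNC, which was mainly PRF1. The sums did not exceed 24.3 CPM for erythroid and 10.3 CPM for endothelial markers. Neural markers summed to 491 to 522 CPM in shFOXA2 and 567 to 602 in shNC, squamous markers to 64.9 to 86.4 and 67.2 to 70.3, and embryonic markers to 9.99 to 12.5 and 13.2 to 14.8. The level of a gene per cell and the share of cells that express it cannot be told apart in these bulk libraries.

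The untreated libraries, which enter no test, give a reference that shares no sample with the comparison. Of 489 tested genes at least 4-fold higher in untreated SW620 than in untreated SW480, 38.7% were lower and 18.6% higher in shFOXA2 (median log2 fold change -0.12). Of 327 genes at least 4-fold higher in untreated SW480, 39.1% were higher and 5.50% lower (median 0.32). Genes within 4-fold had 19.3% higher and 19.98% lower. The ratios of the lines come from log2(CPM + 1) of 1 library each. Tested genes had to reach 1 CPM in 3 hairpin libraries. Genes near that limit could enter through 1 group alone, as EGFR did through shFOXA2, and the part of this in the shares was not tested. The second set includes SLC2A3, at 1540 CPM in SW480 and 62.1 in SW620, and EDAR, at 130 and 8.15, while CAV1 and TNC are examples from the first set that rose in shFOXA2, with 87.4 and 667 CPM in SW620 and 3.64 and 17.9 in SW480.

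By chromosome, the median log2 fold change ran from -0.10 on chromosome 22 to 0.08 on chromosome 5. On chromosome 22, 8.35% of 395 tested genes were higher and 29.1% lower. On chromosome 5, 30.4% of 684 were higher and 17.0% lower. Chromosome 20, which holds FOXA2, had the highest share lower, 29.4% of 394, with 18.3% higher. Chromosomes 9, 11, 15, 16, 17, 19 and 21 also had more genes lower than higher, for example 24.1% against 10.4% on chromosome 19. The FOXA core motif TGTTTAC, searched on both strands from 250 bases before to 50 after the transcript start in RefSeq promoters of GRCh38.p14, was found for 2.38% of 10015 matched tested genes, for 2.48% of those higher and 2.34% of those lower. It was found in 3.41% of all 27305 promoters of the table. Of genes other than protein coding, 104 of 1335 antisense genes were higher and 158 lower, and 46 and 61 of 509 long intergenic RNAs. Over all 15676 tested genes, 19.7% were higher and 20.3% lower, so both classes had fewer calls. Calls were rarer among low genes, and the part of level in these counts was not tested. ITGB2-AS1, antisense to an integrin chain, went from a mean of 0.578 CPM in shNC to 2.46 in shFOXA2, a log2 difference of 2.10. At that shNC mean it could not pass the filter of 1 CPM through the shNC libraries alone, so the filter favoured a rise. The integrin ITGB2 rose by 1.82. Use of strand in counting is not recorded in the labels, so reads of such pairs cannot be told apart.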

How the data were processed

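Each library has 1 deposited table with, per gene, a count and an RPKM value made by the authors. HOMER and the hg19 build are named, per the submitters' processing notes, without a role. For aligner, counter and strand setting: not given in the sources used here. Deposited RPKM values equal count scaled by length and total for 100% of genes with 20 counts or more (relative tolerance 1e-04) and served only for that check. Of 40693 symbols, 256 were repeated, and of these the row with most counts was used.

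The deposited counts of the 6 hairpin libraries were fitted with edgeR 4.0.16 (quasi-likelihood, robust, TMM scaling, two-sided) under R 4.3.3, with Benjamini-Hochberg adjustment over 15676 genes at 0.05. CPM of hairpin libraries uses the TMM-scaled total and CPM of untreated libraries the plain total. SE was taken from the log2 fold change and its F statistic. The fit was tested on simulated data. Alternatives used DESeq2 1.42.0 and limma 3.58.1, other scalings, filters and call rules, a replicate block, and each library left out.

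Positions and 3′ UTRs (the longest annotated per gene) came from GENCODE v29 on GRCh38, not the authors' build, and were searched with Python 3.11.15. Named genes are FOXA2, the 12 largest rises and 12 largest falls at a mean log2 CPM of 6 or more without overlap of groups, the 6 smallest p in each direction, up to 3 called genes per list by p with members chosen for their role, genes of a library that stands apart, markers, and non-coding genes. BNIP3, DPP4, SMAD7, MAML2, PLOD2, IDE, CSNK1A1, CFLAR, PAQR3 and UNC5B were named after their values were seen. One gene that the rule names is not reported here. The members and lists were chosen with earlier results of these data known.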

Additional observations from a re-analysis of the deposited data

How the results depend on the processing

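Under 16 alternatives the call count stayed within 1.5 times of 6258 with 1 exception, the stricter rule of adjusted p under 0.05 and at least 1.5-fold, which left 1533 genes, 720 higher and 813 lower. DESeq2's Wald test called 4902, limma-voom 6249 and total-count scaling 6209, and an adjusted p under 0.01 left 4717. With 1 library left out the count ran from 5294 to 5827. Same-numbered libraries did not deviate together (correlations 0.05, -0.02 and 0.07 over 9300 genes), so the numbers were not taken as paired; with a replicate block the count was 6160. FOXA2 stayed lower and called in every alternative run. Of 135 tested genes that the naming rule picks, 131 kept their call in every alternative run, and 1 of these, AL163636.6, which was not called, turned from 3.00 to -0.50 without shFOXA2 replicate 1. The exceptions were MT-ND6 and MT-CO1, whose calls were lost without shNC replicate 3, and 2 low antisense genes (CTD-2562J17.7 and RP1-92O14.3). List medians moved by more than the spread between replicates in 27 cases, of which 7 were without a filter, and stayed within it in 477. BNIP3 and DPP4, which that rule did not pick, became called without shFOXA2 replicate 1. Calls were fewer among low genes, and the part of depth in this was not tested.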
